A study of Mus musculus with 12 samples.

Results

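The 10 genes Apoe, Igsf23, Bcam, Trappc6a, Ercc2, Vasp, Pnmal2, Ccdc8, Blvrb and Lgals4 lie on chromosome 7, at or near the gene that the knockout allele of the study targets. They were picked out of 55335 gene identifiers in the count files because earlier results of the same libraries had shown them to separate the genotype labels, so their levels by genotype and diet are a description and not a test. RNA of cardiomyocytes, the contracting muscle cells of the heart, had been sequenced from male mice that entered the diets at 7 to 8 weeks of age. By the study's design, ApoE KO stands for mice with the allele Apoe tm1Unc (strain B6.129P2-Apoe tm1Unc/J), a change present in every cell of the animal, and Wt for C57BL/6J mice. On chow the Apoe levels below go against those labels. Each genotype ate for 7 weeks either a Western-type high fat diet with 0.21% cholesterol (HFD) or standard chow (CD). The comparisons use 3 libraries labelled ApoE KO HFD, 2 labelled Wt HFD, 3 labelled ApoE KO CD and 3 labelled Wt CD, and since no label ties replicates to different animals, errors and p-values cover only the differences among the libraries, which may be technical.

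Apolipoprotein E is a component of lipoprotein particles that carry cholesterol and triglyceride, and it is the ligand through which cell surface receptors take remnant particles out of the blood. Without it, mice accumulate remnant cholesterol, most of all on a Western-type diet. The liver makes most of it, macrophages make it too, and cardiomyocytes are not known as a main source. By its name, the strain B6.129P2-Apoe tm1Unc/J carries an allele that was made in cells of another mouse strain and then crossed onto C57BL/6. In strains made that way a stretch of donor chromosome around the targeted gene is commonly kept, and genes in it can differ in sequence and level from the recipient strain. Which strain's sequence the libraries carry around Apoe was not tested, since the files hold counts per gene and no reads.

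The 11 libraries held 22130323 to 46424614 counts on genes, of which genes of the mitochondrial genome took 51.5% to 71.3%. Another library, Wt HFD replicate 3, held 1347110 counts and was left out. At Ercc2 it had 5 counts and its overlapping antisense gene Gm26852 had 79, against 64 to 224 and 0 to 16 counts in the other libraries, so at that place most of its counts were on the gene of the other strand. The 6 cardiomyocyte markers Myh6, Tnnt2, Actn2, Ryr2, Tnni3 and Myl2 summed to 34896 to 49168 CPM in the 11 libraries, where CPM is the count relative to the library total, here corrected for composition by TMM factors. Atrial markers summed to 7.24 to 175 CPM, fibroblast markers to 8.29 to 19.0 CPM and smooth muscle and pericyte markers to 33.4 to 73.8 CPM. All 10 genes passed the filter on low counts, as did 16932 genes in all.

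In the mouse genome build GRCm38, Apoe (ENSMUSG00000002985) lies on the reverse strand of chromosome 7 at 19696109 to 19699188. Bcam (ENSMUSG00000002980, 19756131 to 19771016) and Igsf23 (ENSMUSG00000040498, 19937305 to 19950756) lie 0.0569 and 0.238 Mb to its right, both on the reverse strand. To its left come Trappc6a (ENSMUSG00000002043, 19508395 to 19516145), Ercc2 (ENSMUSG00000030400, 19382010 to 19395694) and Vasp (ENSMUSG00000030403, 19256929 to 19271817), within 0.424 Mb of Apoe. Farther out on the left are Ccdc8 (ENSMUSG00000041117, 16992708 to 16997516) and Pnmal2 (ENSMUSG00000070802, 16944682 to 16948828), close to each other at 2.699 and 2.75 Mb from Apoe. On the right are Blvrb (ENSMUSG00000040466, 27447978 to 27466144) at 7.75 Mb and Lgals4 (ENSMUSG00000053964, 28833854 to 28841708) at 9.13 Mb. The genes span 11.9 Mb, with 162 tested genes between the first and the last. Antisense genes overlap Ercc2 (Gm26852), Vasp (1700058P15Rik) and Bcam (Gm26600), Klc3 overlaps Ercc2 from the other strand, and Gm45114 and the pseudogene Gm44651 overlap Bcam and Igsf23 on the same strand, so the counts of these 4 genes are less certain. Per kb of exon, Bcam had the highest median level, 16.6 CPM per kb, followed by Lgals4 with 8.08, and the other 8 had medians of 0.633 (Ccdc8) to 1.72 CPM per kb (Trappc6a).

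Because the genes separated the same groups in both directions, the 250 bases before the RefSeq start of 4 of them are shown, in GRCm38.p6 and in the direction of transcription. They are the targeted gene, Igsf23, which separated the groups most widely, and a gene of each direction that holds motif matches. All 10 were matched in the RefSeq table of promoters, and the sequence is that of C57BL/6J. The GENCODE start of the gene minus the RefSeq start was −1194 bases for Ccdc8, 484 for Bcam and −275 for Trappc6a. The windows of these genes lie inside the gene as GENCODE gives it. Capitals mark matches on either strand to the GC box GGGCGG or the CCAAT box CCAAT.
Apoe: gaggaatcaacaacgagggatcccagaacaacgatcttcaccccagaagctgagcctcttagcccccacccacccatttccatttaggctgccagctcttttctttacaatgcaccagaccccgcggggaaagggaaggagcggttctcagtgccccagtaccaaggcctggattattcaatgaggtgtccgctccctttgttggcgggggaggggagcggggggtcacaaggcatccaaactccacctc
Igsf23: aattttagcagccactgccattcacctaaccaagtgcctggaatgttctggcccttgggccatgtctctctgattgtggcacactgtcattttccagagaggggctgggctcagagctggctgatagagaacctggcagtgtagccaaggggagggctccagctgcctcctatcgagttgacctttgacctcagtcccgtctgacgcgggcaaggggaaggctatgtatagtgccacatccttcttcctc
Ercc2: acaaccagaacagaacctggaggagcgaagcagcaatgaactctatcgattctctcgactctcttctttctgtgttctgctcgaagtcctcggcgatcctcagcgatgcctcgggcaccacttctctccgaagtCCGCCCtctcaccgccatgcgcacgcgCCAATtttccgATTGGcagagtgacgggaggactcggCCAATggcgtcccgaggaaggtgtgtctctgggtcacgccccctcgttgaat
Blvrb: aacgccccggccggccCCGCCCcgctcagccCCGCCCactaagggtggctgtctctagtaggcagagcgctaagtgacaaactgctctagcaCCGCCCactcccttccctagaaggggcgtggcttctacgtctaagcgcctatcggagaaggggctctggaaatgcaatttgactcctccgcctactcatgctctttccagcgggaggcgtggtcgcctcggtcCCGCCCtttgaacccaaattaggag
These windows are chr7:19699189-19699438 (reverse strand), chr7:19950744-19950993 (reverse strand), chr7:19381767-19382016 (forward strand) and chr7:27447728-27447977 (forward strand), in the order shown. A GC box stood in 4 of the 10 windows (Trappc6a, Ercc2, Pnmal2 and Blvrb) and in 32.7% of the 32851 windows of the table. A CCAAT box stood in 4 of the 10 (Trappc6a, Ercc2, Pnmal2 and Lgals4) and in 33.8% of all. No window of the 10 held the TATA box TATAAA, the E-box CACGTG, the AP-1 site TGANTCA or a direct repeat of AGGTCA with 4 bases between, the form bound by LXR receptors, and these occur in 12.4%, 6.02%, 6.75% and 0.0152% of all windows. Genes with and without matches were found in both directions. A match is a description and not a binding site.

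Apoe, the targeted gene, was low in the libraries labelled ApoE KO HFD and in those labelled Wt CD, and high in those labelled Wt HFD and ApoE KO CD. It had 1.94, 3.02 and 3.16 CPM in ApoE KO HFD, against 18.9 and 8.44 CPM in Wt HFD. On chow it had 25.3, 23.9 and 6.93 CPM in ApoE KO CD, against 2.91, 2.12 and 3.61 CPM in Wt CD. Every library labelled ApoE KO CD was thus above every library labelled Wt CD, which goes against those labels, and every library labelled ApoE KO HFD was below both labelled Wt HFD. The fitted log2 fold change was −2.34 (SE 0.55) for ApoE KO HFD against Wt HFD and 2.69 (SE 0.53) for ApoE KO CD against Wt CD. With each library of the groups left out in turn the value on the high fat diet ran from −2.82 to −1.66, the smaller size being that without Wt HFD replicate 1. Counts cover the whole gene, so RNA of an interrupted allele is counted too, and 54 to 126 counts were found even in the libraries with the lowest levels. Groups are named by their labels throughout.

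Apoe varied more within the groups where it was high than the other genes did. Its coefficient of variation was 54.2% in Wt HFD (n = 2) and 54.6% in ApoE KO CD (n = 3), against 24.7% in ApoE KO HFD and 25.9% in Wt CD (n = 3 each). Macrophage markers differed between the same libraries. The 10 markers Lyz2, Csf1r, C1qa, C1qb, C1qc, Cd68, Adgre1, Mrc1, Cd163 and Fcgr1 summed to 32.8 and 30.7 CPM in ApoE KO CD replicates 1 and 2 and to 6.12 CPM in replicate 3, where Apoe was lowest. They summed to 22.3 CPM in Wt HFD replicate 1 and 5.59 CPM in replicate 2. In ApoE KO HFD the sum was 8.55 to 11.997 CPM and in Wt CD 10.8 to 19.99 CPM, and of the 10 markers none was at 0 except 1 in Wt CD replicate 3. Fewer macrophages and less RNA per macrophage cannot be told apart in bulk RNA. Set against that sum, Apoe stood at 0.218 to 0.354 in ApoE KO HFD, 0.849 and 1.51 in Wt HFD, 0.771 to 1.13 in ApoE KO CD and 0.146 to 0.336 in Wt CD. These ratios did not overlap between ApoE KO HFD and Wt HFD or between ApoE KO CD and Wt CD. Apoe was chosen because its level separates these groups, so that is a description. Within Wt HFD and within ApoE KO CD, the library with the lowest marker sum also had the lowest Apoe. Within the other groups it did not. In Wt CD the lowest sum (replicate 3, 10.8 CPM) went with the highest Apoe (3.61 CPM). In ApoE KO HFD the lowest sum was in replicate 2 (8.55 CPM) and the lowest Apoe in replicate 1 (1.94 CPM). The part of macrophage RNA in the Apoe levels was not tested.

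**Figure D1:**
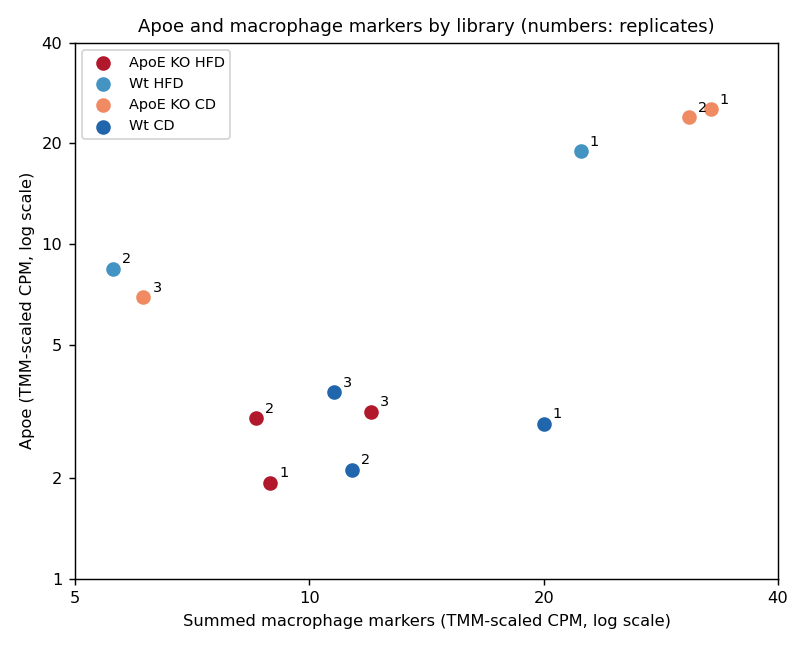
Apoe (vertical) against the sum of 10 macrophage markers (horizontal), both in TMM-scaled CPM on log scales, for each of 11 libraries, coloured by labelled group and numbered by replicate. Apoe runs from 6.93 to 25.3 CPM in Wt HFD and ApoE KO CD and from 1.94 to 3.61 CPM in ApoE KO HFD and Wt CD, while the marker sums of these groups overlap.

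Bcam, Ercc2 and Vasp, all within 0.424 Mb of Apoe, were high in the same groups as Apoe and differed by smaller factors. Bcam, which encodes a cell surface receptor for laminin (the Lutheran blood group protein), had 51.1, 51.3 and 46.9 CPM in ApoE KO HFD against 79.4 and 76.8 CPM in Wt HFD. On chow it had 74.7, 86.0 and 80.9 CPM in ApoE KO CD against 53.1, 49.9 and 42.3 CPM in Wt CD. Neither pair of groups overlapped, and at 1125 to 3451 counts per library Bcam was the most deeply counted of the 10. Endothelial markers, another place where Bcam is made, summed to 61.7 to 96.2 CPM in ApoE KO HFD, 93.9 to 136 CPM in Wt HFD, 51.7 to 73.1 CPM in ApoE KO CD and 56.1 to 126 CPM in Wt CD, and their part in the Bcam level was not tested. Ercc2 encodes the XPD helicase of TFIIH, the complex that opens DNA in transcription and nucleotide excision repair. It averaged 2.51 ± 0.403 CPM in ApoE KO HFD (SD, n = 3) and 5.30 ± 0.444 CPM in Wt HFD (n = 2), and 5.20 ± 0.22 CPM in ApoE KO CD and 2.84 ± 0.23 CPM in Wt CD (n = 3 each). Vasp encodes a protein that promotes actin filament growth at adhesions. Its level was 2.89 to 3.28 CPM in ApoE KO HFD against 5.97 and 6.35 CPM in Wt HFD, and 5.01 to 6.47 CPM in ApoE KO CD against 2.43 to 3.61 CPM in Wt CD. For all 3 genes the ApoE KO CD libraries lay above every Wt CD library and the ApoE KO HFD libraries below both Wt HFD libraries. The log2 fold changes on the high fat diet were −0.65 (SE 0.14) for Bcam, −1.08 (SE 0.20) for Ercc2 and −1.01 (SE 0.21) for Vasp, and on chow 0.73 (SE 0.12), 0.87 (SE 0.19) and 0.96 (SE 0.19).

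Lgals4, the farthest gene, followed Apoe with a difference. It encodes galectin-4, a sugar-binding protein best known from the lining of the gut. It had 6.70, 6.23 and 7.01 CPM in ApoE KO HFD against 37.2 and 36.0 CPM in Wt HFD, a log2 fold change of −2.46 (SE 0.23). On chow it had 22.0, 28.5 and 18.7 CPM in ApoE KO CD against 15.1, 10.5 and 21.9 CPM in Wt CD, a log2 fold change of 0.54 (SE 0.20). The chow groups overlapped, through Wt CD replicate 3, and Lgals4 was the only 1 of the 10 whose chow groups did. Its means took 3 levels rather than a high and a low one: Wt HFD was highest, the chow groups came between, and every ApoE KO HFD library was below every other library. Epithelial markers were near 0, since Epcam, Krt8, Krt18, Krt19 and Cdh1 together summed to 0.423 to 1.55 CPM in the 11 libraries.

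Igsf23, Trappc6a, Pnmal2, Ccdc8 and Blvrb showed the reverse of Apoe. Igsf23, a gene of the immunoglobulin superfamily, had 5.07, 5.60 and 6.14 CPM in ApoE KO HFD against 0.466 and 0.579 CPM in Wt HFD. On chow it had 0.619, 0.398 and 0.506 CPM in ApoE KO CD against 2.59, 5.41 and 4.96 CPM in Wt CD. The lower groups rest on 10 to 26 counts per library and the higher groups on 82 to 245, so the fold is less precise than the separation. The fitted difference was 10.6-fold on the high fat diet (log2 3.40, SE 0.34) and 8.31-fold in the other direction on chow (log2 −3.06, SE 0.30). For every 100 Apoe counts there were 185 to 262 Igsf23 counts in ApoE KO HFD, 2.46 and 6.86 in Wt HFD, 1.66 to 7.30 in ApoE KO CD and 89.1 to 256 in Wt CD. That ratio is taken inside each library and does not depend on scaling.

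Blvrb encodes biliverdin reductase B, an NADPH-dependent flavin reductase that also acts on biliverdin, a product of haem breakdown. It had 4.999, 4.33 and 3.36 CPM in ApoE KO HFD against 0.685 and 0.868 CPM in Wt HFD, and 0.90, 1.15 and 1.09 CPM in ApoE KO CD against 3.07, 5.69 and 3.61 CPM in Wt CD. Neither pair overlapped. Blvrb is abundant in red cells, whose markers Hba-a1, Hbb-bs, Hbb-bt and Alas2 summed to 0.191 to 1.25 CPM in the 11 libraries. Of these 4 markers 1 passed the filter on low counts, and the part of red cells in the Blvrb level was not tested. The log2 fold change was 2.43 (SE 0.32) on the high fat diet and −1.97 (SE 0.27) on chow.

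Pnmal2 belongs to the PNMA family, which descends from the gag gene of a retrotransposon. It had 6.41, 6.64 and 5.71 CPM in ApoE KO HFD against 1.12 and 1.49 CPM in Wt HFD, and 1.55, 1.23 and 2.12 CPM in ApoE KO CD against 6.01, 7.34 and 4.21 CPM in Wt CD. Its neighbour Ccdc8 encodes a member of the 3M complex, in which it works with Cul7 and Obsl1. Ccdc8 had 3.28 to 3.91 CPM in ApoE KO HFD against 1.04 and 1.09 CPM in Wt HFD, and 1.09 to 2.11 CPM in ApoE KO CD against 3.04 to 4.05 CPM in Wt CD. Neural markers, of interest because PNMA genes are known from neurons, summed to 1.65 to 2.78 CPM in all libraries. Both genes were separate between the genotype labels on each diet, in opposite directions. Trappc6a, a subunit of the TRAPP complexes that tether vesicles to the Golgi, had 2.73 to 4.14 CPM in ApoE KO HFD against 1.05 and 1.40 CPM in Wt HFD. On chow it had 0.872 to 1.49 CPM in ApoE KO CD against 4.10 to 4.36 CPM in Wt CD, again with no overlap. The log2 fold changes on the high fat diet were 2.25 (SE 0.28) for Pnmal2, 1.76 (SE 0.29) for Ccdc8 and 1.49 (SE 0.29) for Trappc6a, and on chow −1.82 (SE 0.24), −1.16 (SE 0.25) and −1.93 (SE 0.26).

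**Figure D2:**
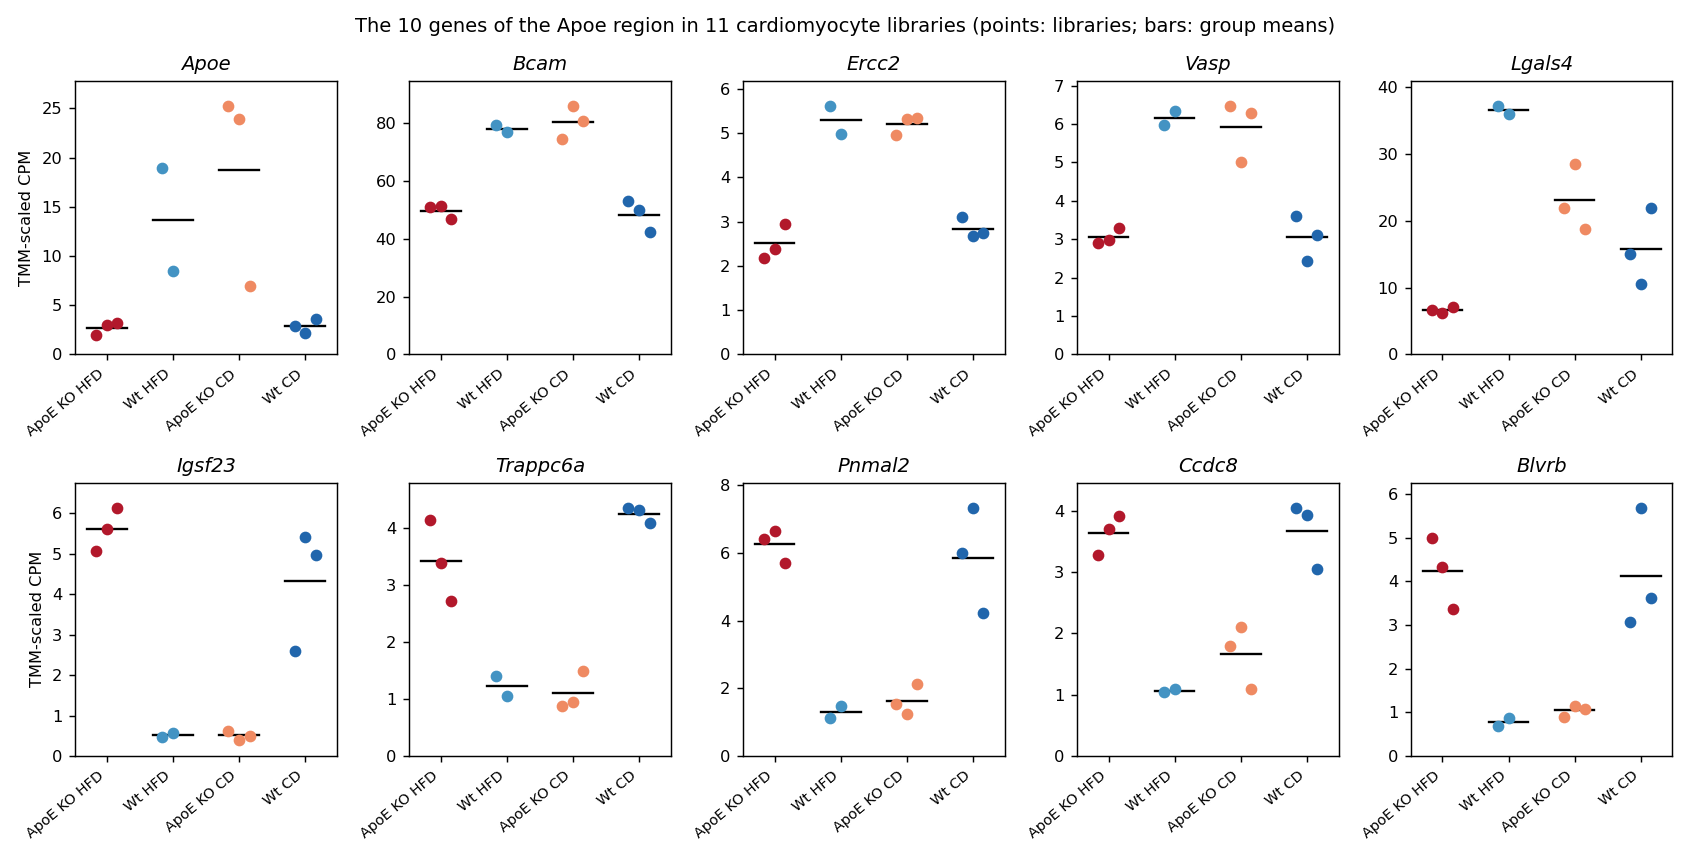
Level of each of the 10 genes in TMM-scaled CPM (vertical, from 0) in the 11 libraries by labelled group; points are libraries and bars are group means. The upper row holds the 5 genes that were high in Wt HFD and ApoE KO CD, and the lower row the 5 that were high in ApoE KO HFD and Wt CD.

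All 10 genes had opposite signs on the 2 diets. For ApoE KO HFD against Wt HFD 5 were above 0 and 5 below, the groups of all 10 did not overlap (21.7% of all tested genes), and edgeR's quasi-likelihood test with Benjamini-Hochberg adjustment over all genes called 5, where it called 0.0472% of all genes. For ApoE KO CD against Wt CD the same 5 and 5 were below and above 0, the groups of 9 did not overlap (16.6% of all tested genes), and 8 were called, where 0.508% of all genes were. The members that edgeR did not call were Apoe, Bcam, Trappc6a, Ercc2 and Vasp on the high fat diet, and Apoe and Lgals4 on chow. DESeq2 called all 10 on the high fat diet (28 of all genes) and 9 on chow (432 of all genes). These genes were chosen on such contrasts, so the counts carry no weight as evidence. The median size of the log2 fold change over the 10 was 2.00 on the high fat diet and 1.49 on chow, against 0.18 and 0.29 over all genes. Distance did not order the sizes: Lgals4, 9.13 Mb away, was 5.49-fold lower in ApoE KO HFD than in Wt HFD, and Bcam, 0.0569 Mb away, was 1.57-fold lower. Of the other 234 tested genes within 10 Mb, 0 were called on the high fat diet (8 of all 16932 genes) and 3 on chow. On chow that is a larger share than the 86 of all 16932 genes. Their median sizes were 0.25 and 0.35. The 10 genes were picked out for separating the groups, so the smaller sizes of the rest follow in part from that choice.

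**Figure D3:**
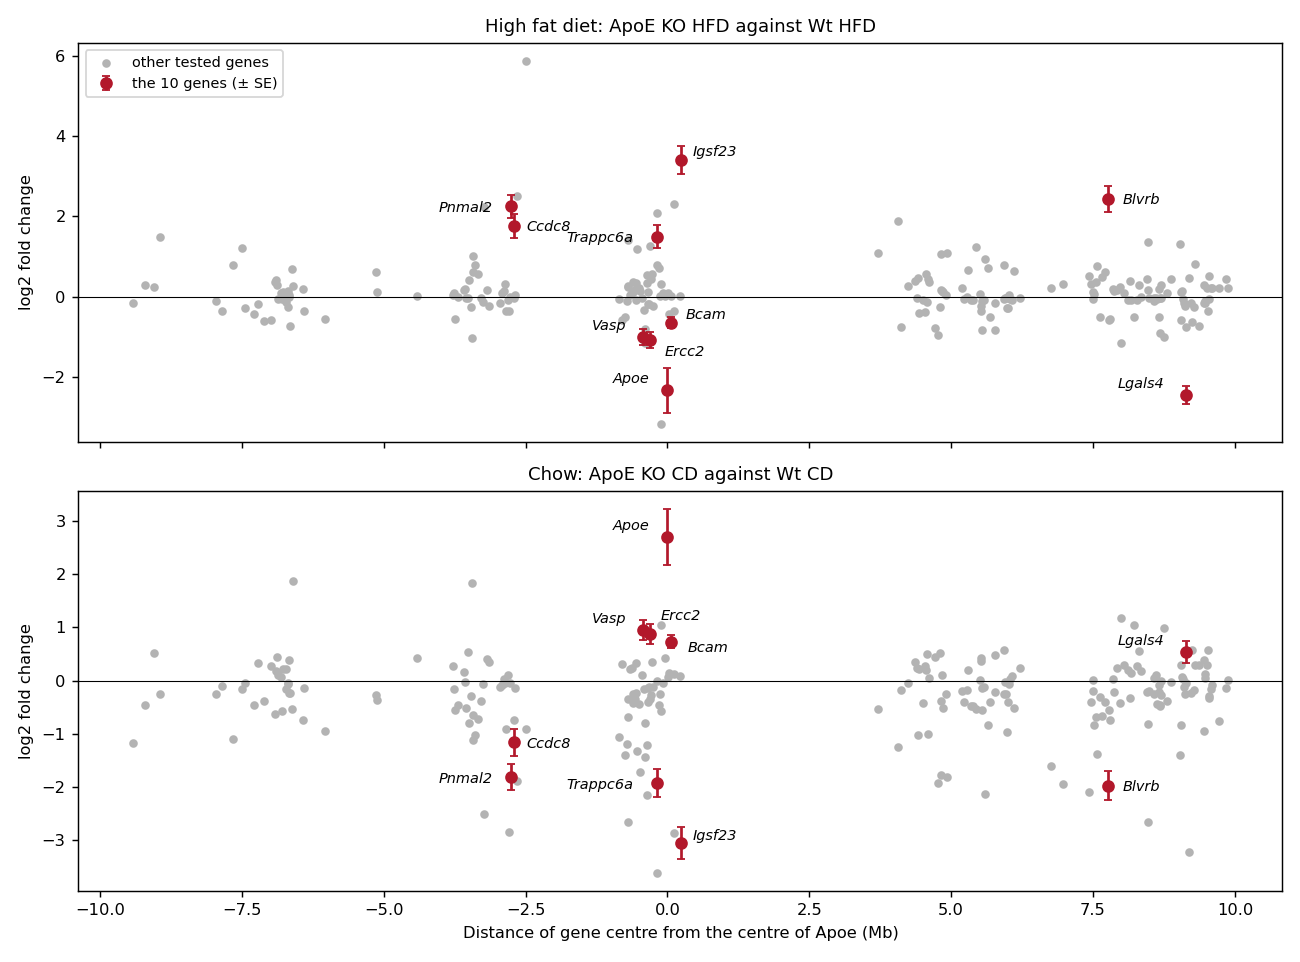
Fitted log2 fold change (vertical) of the 244 tested genes within 10 Mb of Apoe against the distance of the gene's centre from that of Apoe in Mb (horizontal). The upper panel shows ApoE KO HFD against Wt HFD and the lower panel ApoE KO CD against Wt CD; the 10 genes are red with bars of 1 SE, the others grey. Each red point lies on opposite sides of 0 in the panels.

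Within a genotype label, the diets separated the same genes, since these contrasts share libraries with those above. The counts of calls and of separate groups given here therefore carry no weight as evidence either. For ApoE KO HFD against ApoE KO CD the groups of all 10 did not overlap (9.03% of all tested genes), and edgeR called 7, where it called 0.0709% of all genes. DESeq2 called all 10 there and 20 of all genes. Igsf23 was 10.8-fold higher (log2 3.43, SE 0.30) and Apoe 6.93-fold lower (log2 −2.79, SE 0.52) in ApoE KO HFD. For Wt HFD against Wt CD all 10 were again separate (24.7% of all tested genes) and 7 were called by edgeR (0.207% of all genes), while DESeq2 called all 10 and 173 of all genes. There Igsf23 was 8.14-fold lower (log2 −3.03, SE 0.34) and Apoe 4.73-fold higher (log2 2.24, SE 0.56) in Wt HFD, or 1.60 on the log2 scale without Wt HFD replicate 1. Since Apoe goes against the chow labels, genotype and diet cannot be told apart in these contrasts.

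The contrasts in which both labels differ were fitted and tested on the same libraries. The 10 genes were chosen on contrasts that share these libraries, so these p-values and intervals are no independent evidence of likeness between the groups. For ApoE KO HFD against Wt CD, 1 of the 10 was called, Lgals4, where 0.154% of all genes were called. Lgals4 fell to 6.65 ± 0.393 CPM in ApoE KO HFD, against 15.8 ± 5.76 CPM in Wt CD (SD, n = 3 each), 2.38-fold lower (log2 −1.25, SE 0.21, edgeR adjusted p = 0.0343). All 3 ApoE KO HFD libraries were below all 3 Wt CD libraries, and Lgals4 was the only member without overlap (15.6% of all tested genes). Each of the 6 libraries of these groups was left out in turn. The call was kept without Wt CD replicate 2 (log2 −1.47) and lost without any of the other 5 (log2 −1.30 to −0.95). Calls over all genes moved too, from 26 to 1304 without Wt CD replicate 2 and to 0 to 24 without the others. The Lgals4 call was also lost when only the 2 groups were fitted (edgeR adjusted p = 0.063, 12 of all genes called). With all 12 libraries it was lost as well (0.999, 0 of all genes called). The edgeR adjusted p ran from 1.68e-08, with no filter on low counts, to 0.999 over the alternatives, and DESeq2 gave 4.02e-05. Of all genes, 296 were called with no filter and 214 by DESeq2. Markers of some cell types were lower in ApoE KO HFD as well, none of them called: 4 of 4 atrial markers (median log2 −2.51, summing to 17.9 to 83.1 CPM in ApoE KO HFD and 71.1 to 123 CPM in Wt CD), 9 of 9 macrophage markers (−0.46) and 7 of 7 endothelial markers (−0.35). Of the cardiomyocyte markers 5 of 6 were below 0 (−0.27). Fibroblast markers (5 of 6 above 0, median log2 0.27) and smooth muscle and pericyte markers (5 of 6 above 0, 0.15) went the other way, as did the 1 tested erythroid marker (3.74). The part of these cell types in the Lgals4 difference was not tested. The other 9 had log2 fold changes of −0.32 (Trappc6a) to 0.38 (Igsf23), and none passed at an unadjusted p under 0.05. Their 95% intervals were −0.22 to 0.30 for Bcam, −0.59 to 0.23 for Ercc2, −0.42 to 0.41 for Vasp and −0.37 to 0.56 for Pnmal2. The interval of Apoe was wider, −1.34 to 1.14.

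For Wt HFD against ApoE KO CD, 0 of the 10 were called by edgeR (0.0118% of all genes were called), with 1 at an unadjusted p under 0.05, and DESeq2 called 0 as well. The one with the smallest p was Lgals4, at 36.6 ± 0.877 CPM in Wt HFD (SD, n = 2) and 23.1 ± 5.01 CPM in ApoE KO CD (n = 3). Its log2 fold change was 0.67 (95% interval 0.20 to 1.13, edgeR adjusted p = 1), and both Wt HFD libraries lay above every ApoE KO CD library. With no filter on low counts it was called, at 0.72 (edgeR adjusted p = 0.0463, with 0.0463 to 1 over the alternatives), and with all 12 libraries its log2 fold change was 0.19. Apoe had a log2 fold change of −0.45 (interval −1.64 to 0.74), Igsf23 0.03 (−0.77 to 0.83), Bcam −0.04 (−0.33 to 0.25) and Ccdc8 −0.62 (−1.25 to 0.00). Of the 10, 2 did not overlap (19.8% of all tested genes), Lgals4 and Blvrb. Blvrb had 0.777 CPM in Wt HFD and 1.05 CPM in ApoE KO CD, with edgeR adjusted p = 1 and a log2 fold change of −0.42 (−1.11 to 0.28).

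**Figure D4:**
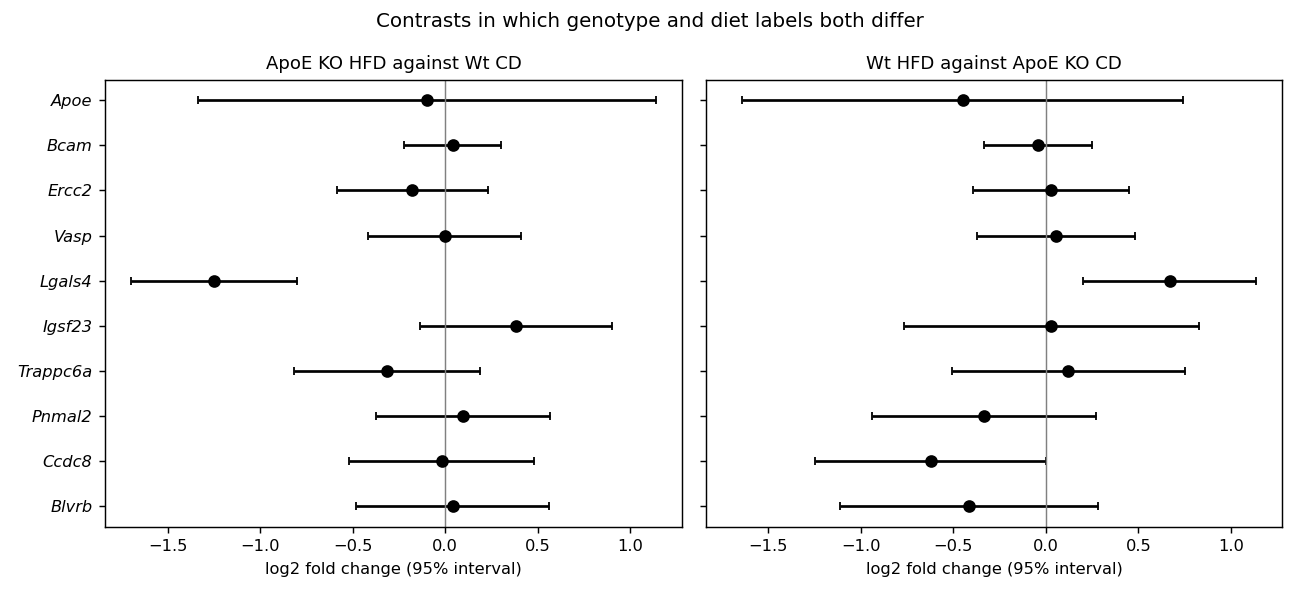
Fitted log2 fold changes (points, horizontal) with 95% intervals (bars) of the 10 genes in ApoE KO HFD against Wt CD (left) and Wt HFD against ApoE KO CD (right). Lgals4 lies below 0 on the left (−1.25) and above 0 on the right (0.67); the other intervals include 0.

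Genes beside Apoe were counted from a list of 24 neighbours. Bcam, Igsf23, Trappc6a, Ercc2 and Vasp, which also lie near Apoe, are not in it. They had been picked for separating the groups, so the list holds what was left after a choice by level. Nor does it hold every other tested gene of that stretch. Of the 24 genes, 15 passed the filter, and the apolipoprotein genes Apoc1, Apoc2 and Apoc4, which share the cluster with Apoe, did not. None of the 15 was called by edgeR for ApoE KO HFD against Wt HFD, where 3 had an unadjusted p under 0.05 (480 of all 16932 genes did), or for ApoE KO CD against Wt CD, where 2 did (2686 of all genes). Since few genes of any kind were called, 0 of 15 is near the background. With the neighbours that separate the groups left out beforehand, it cannot show how genes near Apoe behave as a whole. At an unadjusted p under 0.05 by edgeR, 3 of 15 on the high fat diet is a larger share than that over all genes, and 2 of 15 on chow is not. DESeq2 called 0 and 1. Tomm40, which encodes the import channel of the mitochondrial outer membrane and is reported here because the gene lies next to Apoe, averaged 21.2 ± 2.71 CPM in ApoE KO HFD, 19.9 ± 0.747 CPM in Wt HFD, 22.4 ± 1.94 CPM in ApoE KO CD and 21.5 ± 3.92 CPM in Wt CD. Clptm1, the gene called by DESeq2, averaged 35.0 ± 3.50 CPM in ApoE KO CD and 25.9 ± 1.23 CPM in Wt CD (edgeR log2 0.43, SE 0.12, adjusted p = 0.102; 0.42 and 0.0254 by DESeq2). Nkpd1 (−3.61, SE 1.28) was the other gene on chow, at 0 to 0.451 CPM. On the high fat diet they were Ckm (0.45, SE 0.16), Zfp296 (−3.18, SE 1.15) and Nectin2 (−0.44, SE 0.19), each with an edgeR adjusted p of 1. On chow these genes had the opposite signs, at −0.26 (SE 0.14), 1.05 (SE 0.90) and 0.14 (SE 0.17), and none was called. Opposite signs were common, since 135 of the 234 tested genes within 10 Mb that are no members had them. Zfp296 was near the floor, with 0.0239 to 0.0373 CPM in ApoE KO HFD and 0.134 and 0.438 CPM in Wt HFD. Ckm, the muscle creatine kinase gene near Ercc2, had 442 to 581 CPM in ApoE KO HFD against 342 to 398 CPM in Wt HFD, and 383 to 468 CPM in ApoE KO CD against 483 to 509 CPM in Wt CD. Without Wt CD replicate 2 edgeR called 2 of the adjoining genes on chow in place of 0, when it called 1801 of all genes in place of 86. The median log2 fold change of the 15 was 0.00 on the high fat diet and −0.00 on chow, against 0.01 and −0.01 over all genes.

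Partners and relatives of the 10 genes elsewhere in the genome were listed by function: 49 genes, of which 46 passed the filter and 1, Gtf2h1, lies on chromosome 7. They include the lipoprotein receptors Lrp1, Vldlr and Scarb1, the TFIIH subunits that bind Ercc2, TRAPP subunits with the close relative Trappc6b, the haem enzymes Hmox1, Hmox2 and Blvra, the 3M partners Cul7 and Obsl1, laminins bound by Bcam, and 4 other galectins. For ApoE KO HFD against Wt HFD edgeR and DESeq2 each called 0 of the 46, with 0 at an unadjusted p under 0.05 in either. The smallest p belonged to galectin-3 (Lgals3, log2 −1.85, SE 1.00), Trappc6b (0.36, SE 0.20), the apolipoprotein gene Apob (1.31, SE 0.75) and the cell adhesion gene Mcam (−0.52, SE 0.31). For ApoE KO CD against Wt CD both tools called 0, with 8 at an unadjusted p under 0.05 by edgeR and 7 by DESeq2. As 2686 of all 16932 genes had such a p by edgeR, 8 of 46 is near the background. The smallest belonged to Trappc2l (−0.88, SE 0.27), the profilin gene Pfn1 (−0.47, SE 0.15), the HDL receptor gene Scarb1 (−0.55, SE 0.19) and galectin-9 (Lgals9, −1.05, SE 0.38), with edgeR adjusted p of 0.143 to 0.196. Without Wt CD replicate 2 edgeR called 7 of the partner genes on chow in place of 0, while its calls over all genes rose as given above for the adjoining genes. The median log2 fold change of the 46 was −0.05 on the high fat diet and −0.04 on chow.

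Among tested genes outside the 10, those most like Apoe over the 11 libraries were Zfp30 (Pearson r −0.94 on log2 CPM), Gm18190 (0.94), Muc4 (−0.93), Akt2-ps (−0.93) and Rfesd (−0.90). For Igsf23 they were Gm18190 (−0.98), Zfp30 (0.97), Akt2-ps (0.94), Dynlt1b (0.93) and Tmem181b-ps (0.93). The libraries fall into a high and a low set, so a high r here reflects which set a gene is high in. Zfp30 (chromosome 7, 29783998 to 29794702), a zinc finger gene, had 8.73 to 11.002 CPM in ApoE KO HFD, 3.42 and 3.99 CPM in Wt HFD, 3.26 to 4.07 CPM in ApoE KO CD and 8.70 to 11.4 CPM in Wt CD. The pseudogene Gm18190 (chromosome 7, 7265498 to 7278267) had no count in ApoE KO HFD or Wt CD, 0.267 and 0.329 CPM in Wt HFD and 0.202 to 0.398 CPM in ApoE KO CD. Akt2-ps (chromosome 11) had 0.877 to 1.19 CPM in ApoE KO HFD, 0.164 and 0.312 CPM in Wt HFD, 0.225 to 0.329 CPM in ApoE KO CD and 1.17 to 1.53 CPM in Wt CD. It is annotated as a processed pseudogene and may share reads with other copies, as may Gm18190, Tmem181b-ps and Dynlt1b, so their counts are uncertain. Muc4 (chromosome 16), Rfesd (chromosome 13) and the genes on chromosome 17 lie on other chromosomes.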

How the data were processed

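Per the labels' protocols, a Maxwell RSC kit yielded the RNA and a stranded SMART-Seq kit the libraries. The tools listed, per the submitters' processing notes, are HTSeq 0.13.5, STAR 2.7a and Trimmomatic 0.39, with build GRCm38 (mm10); the strand setting is not given in the sources used here. The authors deposited 12 files of whole-number read counts per gene, not normalized. GENCODE M21 (GRCm38) matched 55154 of 55335 identifiers.

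Counts of 11 libraries (2 or 3 per group) were fitted with edgeR 4.0.16 in R 4.3.3: TMM factors, filterByExpr by group (16932 genes kept), 1 mean per group, robust quasi-likelihood F test, two-sided, Benjamini-Hochberg adjustment over all genes, calls at an adjusted p under 0.05. The residual degrees of freedom were 7 and the common biological coefficient of variation was 0.2. SE is that of the fitted log2 fold change, and likeness used log2 CPM with a prior count of 2. The test was checked on simulated counts. The members, lists and tests were chosen with earlier results of these data known. All 10 members are named, with the called or up to 4 smallest-p genes of the other lists and the 5 genes most like Apoe and Igsf23. Library totals set the precision of each value. Alternatives were RLE factors, mitochondrial genes left out, DESeq2 1.42.0, other filters, other sets of libraries and a replicate block.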

Additional observations from a re-analysis of the deposited data

Results flagged for a closer look

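In 9 genes every ApoE KO library lay on one side of all Wt libraries on the high fat diet and on the other side on chow, which is the pattern they were chosen for and was not tested. The log2 fold change of ApoE KO HFD against Wt HFD minus that of ApoE KO CD against Wt CD was −5.03 for Apoe, −1.38 for Bcam, −1.95 for Ercc2 and −1.97 for Vasp. It was 6.46 for Igsf23, 3.42 for Trappc6a, 4.06 for Pnmal2, 2.92 for Ccdc8 and 4.41 for Blvrb. Lgals4 is left out because its chow groups overlapped.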

How the results depend on the processing

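In the 4 contrasts within a diet or a genotype label, none of the 10 log2 fold changes reversed under the alternatives or without any library of the groups compared. In the contrasts with Wt HFD some moved by more than 1 SD, 10 of them with all 12 libraries: Bcam came to −0.276 for ApoE KO HFD against Wt HFD and 0.308 for Wt HFD against Wt CD. In ApoE KO CD against Wt CD, 1 value moved by more than 1 SD with a library left out. For ApoE KO HFD against Wt CD, 1 member was called, and 0 with all 12 libraries and with only the 2 groups compared. Leaving out each library gave 0 to 1, where 0 to 1304 of all genes were called. For Wt HFD against ApoE KO CD, 0 were called, and 1 with no filter. Same-numbered libraries were not paired: of 15 pairs, 1 correlated above 0.1 (−0.18 to 0.19), and the replicate block left these counts at 1 and 0. Partner genes called on chow numbered 0 to 7 with each library left out. Adjoining genes, an alternative chosen after seeing the data, numbered 1 by DESeq2 and 0 to 2 with each library left out. The highest of these counts, 7 and 2, came without Wt CD replicate 2, where calls over all genes rose as well. Uncalled log2 values near 0 changed sign. For ApoE KO HFD against Wt CD they were Bcam (−0.00415 with at least 50 counts in 3 libraries), Vasp (0.0808 with no filter, 0.0019 with the replicate block) and Ccdc8 (0.0607 and 0.00319). For Wt HFD against ApoE KO CD they were Bcam (0.00423 with no filter) and, with all 12 libraries, Trappc6a (−0.0606), Ercc2 (−0.14) and Vasp (−0.11). The cause was not tested. With each library left out, ApoE KO HFD against Wt CD gave −0.274 to 0.104 for Apoe, −0.0517 to 0.108 for Bcam, −0.14 to 0.13 for Vasp, −0.0958 to 0.285 for Pnmal2, −0.14 to 0.0541 for Ccdc8 and −0.14 to 0.342 for Blvrb. Wt HFD against ApoE KO CD gave −1.13 to 0.039 for Apoe, −0.128 to 0.193 for Igsf23, −0.0946 to 0.00826 for Bcam, −0.0796 to 0.418 for Trappc6a, −0.0453 to 0.125 for Ercc2 and −0.0492 to 0.12 for Vasp. Wt HFD has 2 libraries, so contrasts with it are the least precise, and Igsf23, Blvrb and Trappc6a rest on few counts in their low groups.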

Other observations

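Wt HFD replicate 3, the library left out, had 9 counts of Apoe, 42 of Bcam, 5 of Ercc2, 6 of Vasp and 6 of Lgals4, and 1 of Igsf23, 7 of Ccdc8, 3 of Blvrb and none of Trappc6a or Pnmal2. Of its 79 counts on the 10 genes, 13.9% fell on Igsf23, Trappc6a, Pnmal2, Ccdc8 and Blvrb (exact 95% binomial interval 7.16% to 23.5%, counting error only). That share was 25.6% to 26.9% in ApoE KO HFD, 3.10% and 3.69% in the other Wt HFD libraries, 3.78% to 5.06% in ApoE KO CD and 20.5% to 28.3% in Wt CD. At Ercc2 most of its counts were on the antisense gene Gm26852, and the part of strand in these shares was not tested.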
